A study of Mus musculus with 21 samples.

Results

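The genes described here encode proteins of cell-cell junctions. They are 41 named cadherin, catenin, nectin, claudin, tight junction, desmosome and connexin genes among the 22180 genes that a probe set with a single gene symbol measured, and all 41 were found. Adherens junction genes, with Epcam placed among them, made up 10, tight junction and polarity genes 18, desmosome and envelope genes 11 and gap junction genes 2. A gene with several probe sets was represented by the one with the highest mean over all arrays. The arrays are Affymetrix whole-transcript mouse arrays, and the values are log2 signals.

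Py8119 and Py117 are mammary carcinoma lines, described as clones from transgenic MMTV-PyMT mice. In those mice the promoter of mouse mammary tumour virus, active in mammary epithelium, drives polyoma middle T antigen, so the tumour cells of every sample come from that transgenic model. The tumour groups were mixed tumours grown from both lines implanted together in equal parts, Py8119 tumours and Py117 tumours, with 5 arrays each. Each began as 1000000 cells in PBS and matrigel placed in mammary fat pad 4, and was taken untreated on the day on which radiation would usually have been given. The culture groups were Py8119 cells and Py117 cells grown in F12K medium with 5% serum, with 3 arrays each and no treatment. The strain, sex and age of the hosts were not given in the sources used here. Each line is a single clone, so a difference between the lines is a difference between these 2 clones.

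Epithelial cells are joined by adherens junctions, in which cadherins bind each other outside the cell and catenins inside, by desmosomes, in which desmogleins and desmocollins are tied through plakoglobin, plakophilins and desmoplakin to keratin filaments, and by tight junctions, in which claudins and MARVEL proteins seal the space between cells. Gap junctions are channels of connexins. In the mammary gland these contacts hold the luminal and basal layers together, and carcinoma cells that take on a mesenchymal state are known to lower E-cadherin and to carry N-cadherin. Repressors of the Snail and Zeb families bind the hexamer CACCTG, or CAGGTG on the opposite strand, in several junction promoters.

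To show where that hexamer lies in genes of the list, 5 promoters are printed from RefSeq (GRCm38.p6). Each is the 250 bases before a start of the gene, in the direction of transcription. Capitals mark CACCTG and CAGGTG. Epcam, Lsr and Ocln were lower in Py8119 in both settings, Jup was lower as well but holds no hexamer, and Tjp1 differed little and holds none. The promoters shown were picked after the values were seen. Where a gene had several starts, the start with the most hexamers in its window is shown.
Epcam, chr17:87635729-87635978, plus strand: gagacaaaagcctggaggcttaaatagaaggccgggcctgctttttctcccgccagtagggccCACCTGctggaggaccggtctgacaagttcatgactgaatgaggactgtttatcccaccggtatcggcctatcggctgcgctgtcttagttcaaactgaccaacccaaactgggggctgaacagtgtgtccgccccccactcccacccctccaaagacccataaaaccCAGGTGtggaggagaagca
Lsr, chr7:30973470-30973719, minus strand: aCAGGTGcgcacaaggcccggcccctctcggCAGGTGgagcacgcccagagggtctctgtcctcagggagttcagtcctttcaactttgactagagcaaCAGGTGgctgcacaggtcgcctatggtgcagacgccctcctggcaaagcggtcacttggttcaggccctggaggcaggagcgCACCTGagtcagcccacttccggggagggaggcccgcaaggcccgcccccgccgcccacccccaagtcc
Ocln, chr13:100552499-100552748, minus strand: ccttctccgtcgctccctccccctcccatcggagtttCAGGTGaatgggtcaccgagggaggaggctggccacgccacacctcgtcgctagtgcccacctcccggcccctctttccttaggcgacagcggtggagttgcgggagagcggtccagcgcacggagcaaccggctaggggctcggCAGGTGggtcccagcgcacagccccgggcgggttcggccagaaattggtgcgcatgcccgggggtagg
Jup, chr11:100397791-100398040, minus strand: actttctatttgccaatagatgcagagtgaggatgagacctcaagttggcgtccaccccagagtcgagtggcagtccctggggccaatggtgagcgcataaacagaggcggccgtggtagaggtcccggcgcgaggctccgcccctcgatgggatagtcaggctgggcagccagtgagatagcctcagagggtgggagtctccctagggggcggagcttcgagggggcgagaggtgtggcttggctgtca
Tjp1, chr7:65371245-65371494, minus strand: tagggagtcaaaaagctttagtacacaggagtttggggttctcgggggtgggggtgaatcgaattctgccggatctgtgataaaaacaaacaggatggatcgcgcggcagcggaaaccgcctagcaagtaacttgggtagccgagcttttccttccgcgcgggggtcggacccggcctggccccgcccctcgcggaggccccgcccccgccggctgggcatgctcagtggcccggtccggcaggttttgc
The hexamers began 187 and 19 bases before the start of Epcam, and 249, 219, 151 and 69 bases before that of Lsr. For Ocln they began 213 and 68 bases before the start shown. The window of another Ocln start held 1 hexamer, which began at base 8 counted from that start and not before it. Windows of 250 bases before to 50 bases after a start were at hand for 23 of the 41 genes, and 14 of these (60.9%) held the hexamer, against 6098 of 27025 genes (22.6%) over all promoters of that length. Among the 9 with a window that were at least 2-fold lower in Py8119 in both settings by the measured log2 difference, 8 held it. Among the other 14 it was found in 6. A match of letters is a description of the window and does not show that a protein binds there.

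Over all genes the array medians lay between 5.93 and 6.08 in tumours and between 5.65 and 5.93 in culture, and arrays of one group correlated across genes with r between 0.969 and 0.994. As a background level, the 95th percentile of 1394 olfactory and vomeronasal receptor genes was 5.31. Under it on every array were 7 junction genes in mixed tumours, 11 in Py8119 tumours, 3 in Py117 tumours, 11 in Py8119 culture and 2 in Py117 culture. Cldn6 and Dsc3 were under it on every one of the 21 arrays. Where every array of the dimmer group was under the background level, the fold is given as a lower bound against that level. The number of arrays limits the precision, and p-values measure differences against the spread between arrays. They are limma's, adjusted by Benjamini-Hochberg over 22180 genes, and called at 0.05, and log2 differences carry their standard error. Tumours also hold host cells: macrophage markers (10 genes) had a mean log2 signal of 10.53 to 10.86 in mixed, 10.48 to 10.83 in Py8119 and 10.06 to 10.44 in Py117 tumours, against 5.65 to 6.20 in the cultures.

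**Figure D1:**
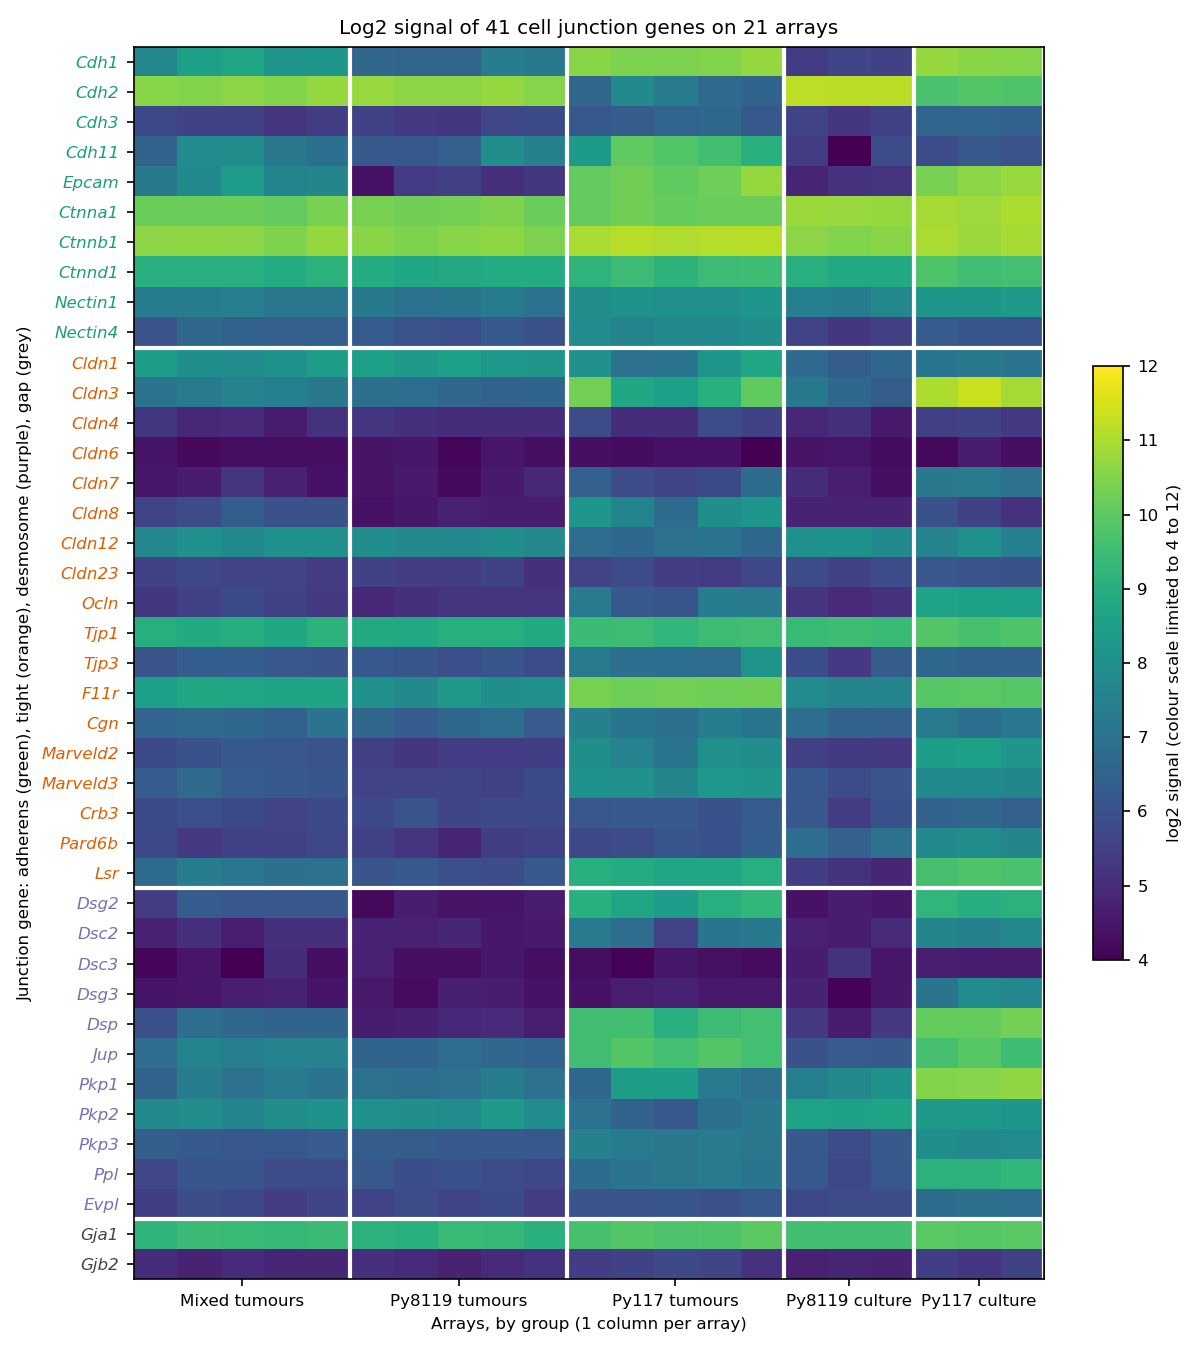
Log2 signal of the 41 junction genes (rows, by junction type) on the 21 arrays (columns, by group), with the colour scale limited to 4 to 12. Cdh1, Epcam, Lsr, Dsg2, Dsp and Jup are bright on the Py117 arrays and dim on the Py8119 arrays, and Cdh2 is dimmest on the Py117 tumour arrays.

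The line comparison asked how junction genes differed between Py8119 and Py117, once in culture, without host tissue, and once in tumours. In culture 31 of the 41 genes were lower in Py8119 cells and 2 were higher, where 12.3% of all genes were called lower and 14.5% higher. At least 2-fold lower were 20, against 4.23% of all genes, and the median difference was -0.96 over the junction genes and -0.01 over all genes. In tumours 30 were lower and 3 higher in Py8119, where 16.5% of all genes were called lower, 4648 of the 22180 genes were called higher, and 37.4% were called in either direction. There 19 were at least 2-fold lower, against 5.27% of all genes, and the median difference was -0.88, against 0.01 over all genes. Lower in both settings were 27 genes, 15 of them by at least 2-fold in each: Cdh1, Epcam, Cldn3, Cldn7, Ocln, F11r, Marveld2, Marveld3, Lsr, Dsg2, Dsc2, Dsp, Jup, Pkp3 and Ppl. These 2-fold counts use the log2 differences as measured, also under the background level. For Cldn7 in tumours the lower bound against that level was only 1.75-fold. The share of all genes lower in both settings was not counted. It can be no larger than the share in culture alone, 12.3%, or 4.23% at 2-fold. Cdh2 and Pkp2 were higher in both, none was called in opposite directions, and Ctnna1, Cldn6, Cldn23 and Dsc3 were called in neither. In tumours, fewer cells of a type and less RNA per cell cannot be told apart.

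By junction type, 9 of 11 desmosome genes were lower in culture (median difference -2.82), 13 of 18 tight junction genes (-0.77), 7 of 10 adherens genes (-0.75) and both gap junction genes (-0.50). In tumours the counts were 7 of 11 desmosome genes (-1.002), 13 of 18 tight junction genes (-0.93), 8 of 10 adherens genes (-0.90) and both gap junction genes (-0.57). The array medians themselves differed by -0.15 between the cultures and by -0.10 between the parental tumours, so differences near that size depend on the scaling. With each array centred on its median, 27 genes were lower and 2 higher in culture, where 8.39% of all genes were lower and 19.9% higher, and 30 were lower and 4 higher in tumours, where 13.2% of all genes were lower and 28.1% higher.

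**Figure D2:**
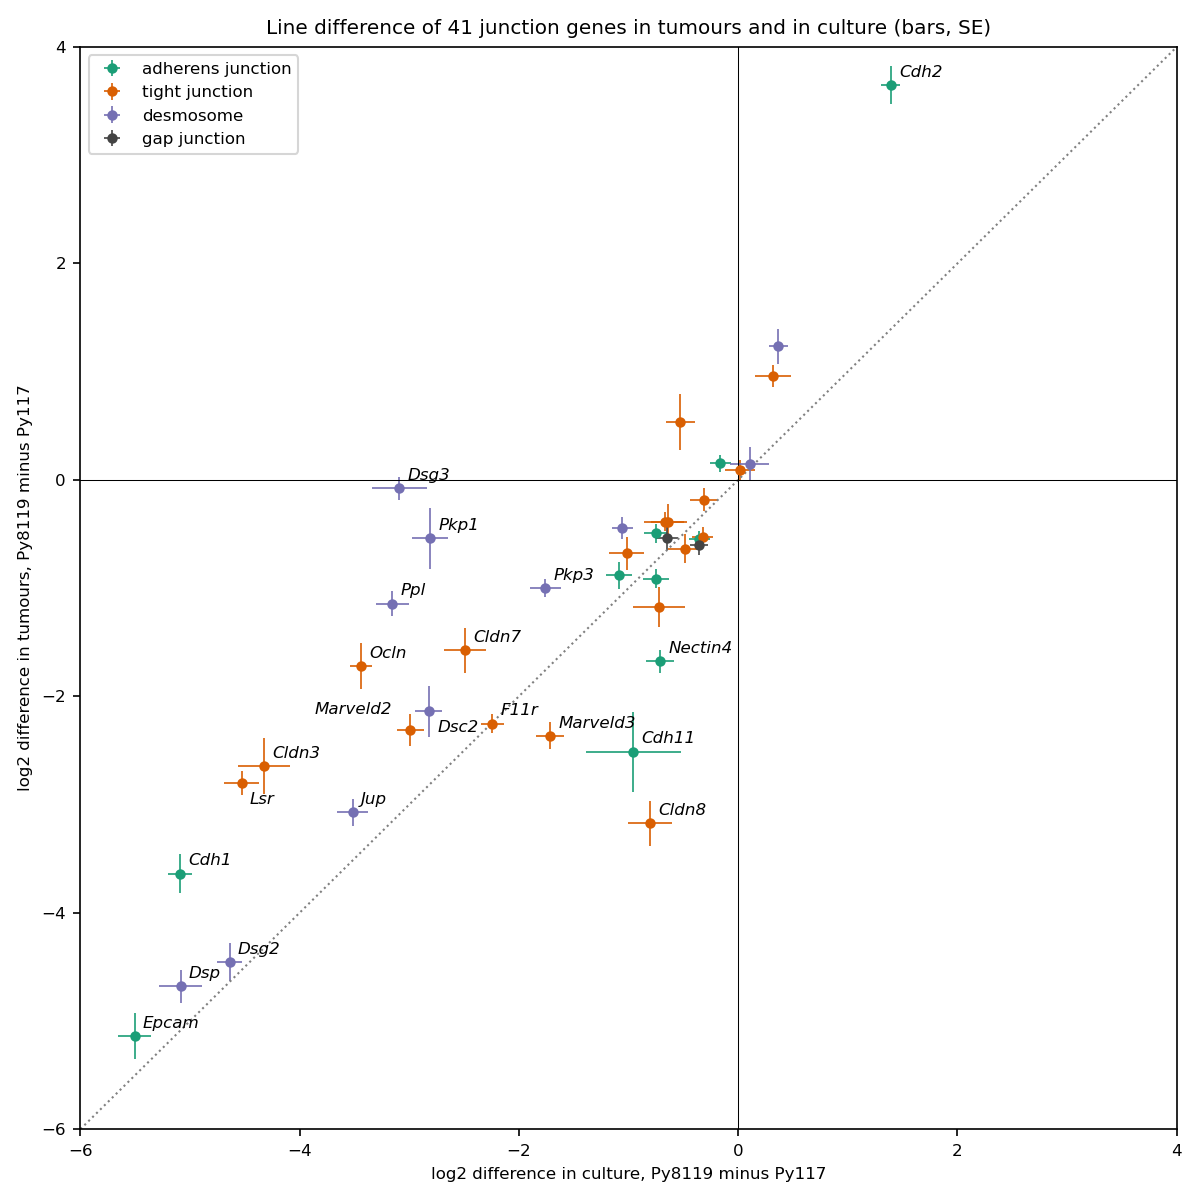
Log2 difference Py8119 minus Py117 of the 41 junction genes in culture (x axis) and in tumours (y axis), with bars for the standard error and the dotted line marking equal differences. Epcam (-5.51 and -5.14), Dsp and Dsg2 lie at the lower left near the line, Cdh2 (1.39 and 3.65) at the upper right, and Dsg3, Pkp1 and Ppl above the line.

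Of the adherens junction genes, Epcam and Cdh1 had the most negative differences, Py8119 minus Py117, in both settings. Cdh1 had log2 signals of 7.69, 8.51, 8.69, 8.18 and 8.24 in mixed tumours, 6.63, 6.61, 6.60, 7.36 and 7.24 in Py8119 tumours, and 10.57, 10.43, 10.42, 10.47 and 10.74 in Py117 tumours. Py8119 cultures gave 5.38, 5.66 and 5.54, against 10.74, 10.58 and 10.55 in Py117 cultures. E-cadherin, the main cadherin of epithelia, was thus far lower on every Py8119 array than on any Py117 array, with the mixed tumours between. Over all genes, 11.9% lay lower without overlap in Py8119 tumours and 15.7% higher, and 20.2% lay lower without overlap in Py8119 culture. The log2 difference Py8119 minus Py117 was -3.64 ± 0.18 in tumours (12.5-fold, adjusted p = 3.06e-11, n = 5 and 5) and -5.09 ± 0.11 in culture (34.2-fold, adjusted p = 1.91e-06, n = 3 and 3). Among the Py8119 tumours, replicates 4 and 5 were highest for Cdh1.

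Epcam had log2 signals of 7.24, 7.81, 8.39, 7.61 and 7.65 in mixed tumours, 4.38, 5.39, 5.51, 5.09 and 5.30 in Py8119 tumours, and 10.07, 10.27, 10.06, 10.23 and 10.73 in Py117 tumours. Py8119 cultures gave 4.84, 5.13 and 5.25, against 10.37, 10.61 and 10.76 in Py117 cultures. Epcam, an adhesion molecule of epithelial cells, was near background wherever only Py8119 cells had been used: 3 of 5 Py8119 tumour arrays and every Py8119 culture array were under the background level. The log2 difference was -5.14 ± 0.21 in tumours (adjusted p = 3.39e-12) and -5.51 ± 0.15 in culture (adjusted p = 2.06e-06), where Py8119 cells were at least 38.7-fold lower.

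Cdh2 had log2 signals of 10.57, 10.53, 10.61, 10.51 and 10.73 in mixed tumours, 10.76, 10.61, 10.62, 10.73 and 10.53 in Py8119 tumours, and 6.64, 7.80, 7.28, 6.72 and 6.57 in Py117 tumours. Py8119 cultures gave 11.19, 11.17 and 11.16, against 9.70, 9.85 and 9.81 in Py117 cultures. N-cadherin, the cadherin of neural and mesenchymal cells, was high on the Py8119 and mixed arrays and also in Py117 culture. Py117 tumours stood below all other groups and spread over more than a unit. The log2 difference was 3.65 ± 0.18 in tumours (adjusted p = 2.46e-11) and 1.39 ± 0.09 in culture (adjusted p = 5.11e-05). A separate Cdh2 probe set went the same way in both settings, at 9.62 in Py8119 against 5.87 in Py117 tumours and 10.16 in Py8119 against 8.67 in Py117 culture.

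Cdh11 had log2 signals of 6.54, 7.85, 7.92, 7.20 and 6.91 in mixed tumours, 6.24, 6.22, 6.46, 7.94 and 7.48 in Py8119 tumours, and 8.36, 10.04, 9.83, 9.58 and 9.08 in Py117 tumours. Py8119 cultures gave 5.44, 4.01 and 5.86, against 5.88, 6.24 and 6.05 in Py117 cultures. This cadherin, which is typical of fibroblasts and bone-forming cells, was lower in Py8119 than in Py117 tumours (-2.51 ± 0.37, adjusted p = 2.43e-05), and the groups did not overlap. In culture both lines were dim and the difference was not called (-0.96 ± 0.43, adjusted p = 0.161). Fibroblast markers moved with it: the summed linear signal of 10 markers ran from 3238 to 5329 in mixed, 2672 to 5154 in Py8119 and 6480 to 14085 in Py117 tumours, against 464 to 937 in the cultures, where 6 of the 10 were under background. Their part in the Cdh11 difference was not tested.

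P-cadherin (Cdh3), a cadherin of basal mammary cells, was lower in Py8119, with log2 differences of -0.88 ± 0.13 in tumours (adjusted p = 1.84e-05) and -1.09 ± 0.12 in culture (adjusted p = 0.000646). Nectin1, an immunoglobulin-like adhesion molecule, was lower, with log2 differences of -0.91 ± 0.09 in tumours (adjusted p = 2.14e-07) and -0.75 ± 0.12 in culture (adjusted p = 0.00346). Among the catenins, which work with cadherins, beta-catenin (Ctnnb1) averaged 10.53 ± 0.09 in Py8119 and 11.08 ± 0.07 in Py117 tumours (SD, n = 5 each). There it differed by -0.55 ± 0.08 (adjusted p = 1.52e-05). In culture it differed by -0.35 ± 0.10 (adjusted p = 0.032). Catenin delta 1 (Ctnnd1) differed by -0.49 ± 0.09 in tumours (adjusted p = 0.000177) and -0.75 ± 0.11 in culture (adjusted p = 0.00203). Alpha-catenin (Ctnna1) was called in neither setting (0.15 ± 0.08 in tumours, adjusted p = 0.17, and -0.16 ± 0.09 in culture, adjusted p = 0.255). The Ctnnb1 call in culture did not hold with median centring (adjusted p = 0.196) or without Py117 culture 1 or 3 or any 1 of the Py8119 cultures (0.0614 to 0.108).

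Nectin4 had log2 signals of 6.11, 6.65, 6.49, 6.47 and 6.45 in mixed tumours, 6.34, 6.04, 5.96, 6.26 and 6.00 in Py8119 tumours, and 7.86, 7.58, 7.84, 7.80 and 7.91 in Py117 tumours. Py8119 cultures gave 5.64, 5.26 and 5.51, against 6.34, 6.15 and 6.08 in Py117 cultures. Nectin4, a nectin that carcinomas often carry, was lower in every Py8119 and mixed tumour than in any Py117 tumour. Of 22180 genes, 2643 lay lower without overlap in Py8119 than in Py117 tumours, and 2401 in mixed than in Py117 tumours. The log2 difference Py8119 minus Py117 was -1.68 ± 0.11 in tumours (adjusted p = 9.5e-10) and -0.71 ± 0.13 in culture (adjusted p = 0.00621).

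Among tight junction genes, the claudins form the strands that seal the gap between cells. Cldn3 had log2 signals of 7.08, 7.31, 7.53, 7.45 and 7.22 in mixed tumours, 6.94, 6.88, 6.63, 6.50 and 6.57 in Py8119 tumours, and 10.28, 8.81, 8.52, 9.07 and 10.06 in Py117 tumours. Py8119 cultures gave 7.25, 6.70 and 6.35, against 11.004, 11.35 and 10.92 in Py117 cultures. Claudin 3, a sealing claudin of glandular epithelia, was lower in Py8119 in both settings (-2.65 ± 0.26 in tumours, adjusted p = 2.01e-07, and -4.33 ± 0.23 in culture, adjusted p = 2.49e-05). Py117 tumours spread widely, from 8.52 to 10.28, without reaching the other tumours. Cldn8 had log2 signals of 5.65, 5.82, 6.35, 5.99 and 5.97 in mixed tumours, 4.40, 4.51, 4.76, 4.62 and 4.65 in Py8119 tumours, and 8.21, 7.62, 6.80, 7.98 and 8.20 in Py117 tumours. Py8119 cultures gave 4.75, 4.77 and 4.78, against 5.99, 5.59 and 5.14 in Py117 cultures. Claudin 8 was on in Py117 tumours and intermediate in mixed tumours, while every Py8119 array was under the background level. Py8119 tumours were at least 5.49-fold lower than Py117 tumours (-3.18 ± 0.21, adjusted p = 1.33e-09). In culture the bound was 1.2-fold (-0.81 ± 0.20, adjusted p = 0.023), a call that was lost without Py117 culture 2 (adjusted p = 0.0707), Py8119 culture 1 (0.0564) or Py8119 culture 3 (0.0558).

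Claudin 7, also a claudin of glandular epithelia, averaged 4.54 ± 0.27 in Py8119 and 6.12 ± 0.50 in Py117 tumours (SD, n = 5 each), and 4.68 ± 0.37 in Py8119 and 7.17 ± 0.15 in Py117 culture (SD, n = 3 each). Every Py8119 array was under the background level, so Py8119 was at least 1.75-fold lower in tumours (adjusted p = 6.53e-06) and at least 3.65-fold lower in culture (adjusted p = 0.000117). Cldn1 had log2 signals of 8.48, 7.99, 7.85, 8.07 and 8.47 in mixed tumours, 8.53, 8.29, 8.51, 8.25 and 8.16 in Py8119 tumours, and 8.04, 7.00, 7.08, 8.22 and 8.73 in Py117 tumours. Py8119 cultures gave 6.81, 6.36 and 6.67, against 7.12, 7.22 and 7.08 in Py117 cultures. Claudin 1, a barrier claudin, was called lower in Py8119 culture (-0.53 ± 0.13, adjusted p = 0.0241), but not without any 1 of the Py117 cultures (adjusted p = 0.0623 to 0.0783). In tumours the Py8119 arrays lay within the range of the Py117 arrays (0.53 ± 0.26, adjusted p = 0.123).

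Cldn12 had log2 signals of 7.72, 8.04, 7.81, 8.01 and 8.02 in mixed tumours, 7.91, 7.75, 7.69, 7.95 and 7.76 in Py8119 tumours, and 6.87, 6.67, 7.02, 7.06 and 6.66 in Py117 tumours. Py8119 cultures gave 8.02, 8.12 and 7.84, against 7.57, 8.02 and 7.44 in Py117 cultures. Claudin 12 was the claudin that was higher in Py8119, in tumours (0.96 ± 0.10, adjusted p = 5.84e-07, no overlap), whereas in culture the arrays of the lines overlapped (0.32 ± 0.17, adjusted p = 0.22). Cldn4 had log2 signals of 5.29, 4.93, 4.96, 4.62 and 5.16 in mixed tumours, 5.21, 5.11, 5.01, 5.05 and 5.04 in Py8119 tumours, and 5.87, 5.04, 5.05, 5.85 and 5.54 in Py117 tumours. Py8119 cultures gave 4.90, 5.07 and 4.53, against 5.51, 5.57 and 5.35 in Py117 cultures. Claudin 4 was dim on every array, with the Py8119 arrays under the background level. It was called lower in Py8119 culture (-0.64 ± 0.15, adjusted p = 0.0186) but not without Py117 culture 1 (0.0667) or 2 (0.066), and not in tumours (-0.39 ± 0.16, adjusted p = 0.0713). Cldn23 was called in neither setting (-0.18 ± 0.10 in tumours and -0.32 ± 0.13 in culture).

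The MARVEL proteins and the proteins of tricellular corners, where 3 cells meet, were lower in Py8119. Ocln had log2 signals of 5.29, 5.59, 5.80, 5.59 and 5.35 in mixed tumours, 4.89, 5.12, 5.22, 5.22 and 5.22 in Py8119 tumours, and 7.29, 6.21, 6.15, 7.37 and 7.28 in Py117 tumours. Py8119 cultures gave 5.24, 5.00 and 5.14, against 8.61, 8.57 and 8.51 in Py117 cultures. Occludin was under the background level on every Py8119 array. It was at least 2.94-fold lower in Py8119 than in Py117 tumours (-1.72 ± 0.21, adjusted p = 3.44e-06) and at least 9.57-fold lower in culture (-3.44 ± 0.10, adjusted p = 2.24e-06). Marveld3 had log2 signals of 6.33, 6.77, 6.33, 6.28 and 6.13 in mixed tumours, 5.64, 5.65, 5.68, 5.58 and 5.80 in Py8119 tumours, and 8.09, 8.03, 7.63, 8.25 and 8.19 in Py117 tumours. Py8119 cultures gave 6.22, 5.82 and 6.11, against 7.83, 7.82 and 7.66 in Py117 cultures. Marveld3, another MARVEL protein, differed by -2.37 ± 0.12 in tumours (adjusted p = 6.7e-11) and -1.72 ± 0.13 in culture (adjusted p = 0.000103). Tricellulin (Marveld2) differed by -2.31 ± 0.15 in tumours (adjusted p = 9.82e-10) and -2.99 ± 0.13 in culture (adjusted p = 8.12e-06).

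Lsr had log2 signals of 6.79, 7.36, 7.13, 6.95 and 6.98 in mixed tumours, 6.12, 6.24, 5.96, 5.88 and 6.22 in Py8119 tumours, and 9.02, 8.93, 8.72, 8.73 and 9.02 in Py117 tumours. Py8119 cultures gave 5.48, 5.18 and 4.87, against 9.63, 9.79 and 9.70 in Py117 cultures. Lsr, an angulin that brings tricellulin to these corners, was lower in Py8119, with log2 differences of -2.80 ± 0.11 in tumours (6.96-fold, adjusted p = 2.1e-12) and -4.53 ± 0.16 in culture (adjusted p = 4.19e-06), where 2 of the 3 Py8119 arrays were under the background level. A separate probe set assigned to Lsr did not show this: its means were 6.93 in mixed, 7.14 in Py8119 and 7.03 in Py117 tumours, and 6.69 in Py8119 and 6.84 in Py117 culture.

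Scaffold and polarity genes had smaller differences, apart from the junctional adhesion molecule F11r. It averaged 8.03 ± 0.17 in Py8119 and 10.28 ± 0.06 in Py117 tumours (SD, n = 5 each), and differed by -2.25 ± 0.09 there (adjusted p = 1.88e-12) and by -2.24 ± 0.10 in culture (adjusted p = 1.3e-05). Tjp1, the main zonula occludens scaffold, differed by -0.52 ± 0.09 in tumours (adjusted p = 7.47e-05). In culture Tjp1 differed by -0.32 ± 0.09 (adjusted p = 0.0432), a call that was lost with median centring (adjusted p = 0.333) and without any of 5 arrays, namely Py117 culture 1 or 3 or any 1 of the Py8119 cultures (0.0593 to 0.137). Tjp3 had log2 signals of 6.10, 6.40, 6.40, 6.17 and 6.12 in mixed tumours, 6.20, 6.13, 5.94, 6.14 and 5.82 in Py8119 tumours, and 7.28, 6.92, 6.92, 6.85 and 8.13 in Py117 tumours. Py8119 cultures gave 5.91, 5.33 and 6.35, against 6.67, 6.54 and 6.54 in Py117 cultures. Tjp3, an epithelial scaffold of the same family, was lower in Py8119 tumours (-1.17 ± 0.19, adjusted p = 5.5e-05) and not called in culture (-0.72 ± 0.24, adjusted p = 0.0635). Cgn had log2 signals of 6.61, 6.77, 6.67, 6.51 and 7.05 in mixed tumours, 6.64, 6.33, 6.69, 6.89 and 6.30 in Py8119 tumours, and 7.48, 7.10, 6.96, 7.40 and 7.11 in Py117 tumours. Py8119 cultures gave 6.89, 6.55 and 6.46, against 7.29, 6.93 and 7.15 in Py117 cultures. Cingulin, which ties tight junctions to the cytoskeleton, was likewise called lower in tumours (-0.64 ± 0.13, adjusted p = 0.000893) and not in culture (-0.49 ± 0.15, adjusted p = 0.0525).

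Pard6b had log2 signals of 5.78, 5.33, 5.58, 5.56 and 5.73 in mixed tumours, 5.58, 5.23, 4.84, 5.48 and 5.59 in Py8119 tumours, and 5.73, 5.82, 6.15, 6.02 and 6.40 in Py117 tumours. Py8119 cultures gave 6.87, 6.45 and 6.98, against 7.80, 7.92 and 7.64 in Py117 cultures. Pard6b, a subunit of the Par polarity complex, was lower in Py8119 in tumours (-0.68 ± 0.15, adjusted p = 0.00132) and in culture (-1.02 ± 0.16, adjusted p = 0.00316). Crb3, of the apical Crumbs complex, differed by -0.39 ± 0.09 in tumours (adjusted p = 0.00205), where the groups overlapped, and by -0.66 ± 0.20 in culture (adjusted p = 0.0432). The culture call of Crb3 was lost without any 1 of the Py117 cultures (adjusted p = 0.0986 to 0.127) or Py8119 culture 3 (0.0632). Adipocyte markers also differed between the parental tumours: the summed linear signal of 11 markers ran from 580 to 1052 in Py8119 and from 2133 to 7627 in Py117 tumours. Their mean log2 signal did not overlap between these groups, at 5.52 to 6.14 in Py8119 and 6.31 to 8.58 in Py117 tumours. A fit with this mean as a covariate therefore cannot tell fat content and line apart. In that fit, for which the share over all genes was not counted, 26 genes were lower and 4 higher in Py8119 tumours. Then 5 genes were no longer called: Tjp3 (-0.61 with the covariate, against -1.17 without, adjusted p = 0.0626), Cgn (-0.38, against -0.64, 0.169), Pard6b (-0.54, against -0.68, 0.0965), Crb3 (-0.38, against -0.39, 0.0537) and Evpl (-0.42, against -0.44, 0.062). Other host markers differed too. All 10 fibroblast, 12 endothelial and 7 T cell markers and 10 of 11 adipocyte markers were lower in Py8119 tumours. Of 10 macrophage markers, 7 were higher and 1 lower. Of 11 markers of normal mammary epithelium, 5 were lower in Py8119 tumours and 3 in Py8119 culture. These are not host markers alone: their summed linear signal was 4545 to 4876 in Py117 culture, without host tissue, and 2346 to 4557 in Py117 tumours. The part of host cells in the junction gene differences was not tested.

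Among desmosome genes, Dsp and Dsg2 had the most negative differences, Py8119 minus Py117, in tumours. Dsp had log2 signals of 5.94, 6.89, 6.71, 6.54 and 6.57 in mixed tumours, 4.61, 4.70, 4.91, 4.98 and 4.66 in Py8119 tumours, and 9.54, 9.59, 9.03, 9.50 and 9.59 in Py117 tumours. Py8119 cultures gave 5.32, 4.64 and 5.33, against 10.12, 10.12 and 10.32 in Py117 cultures. Desmoplakin, which anchors keratin filaments, was under the background level on every Py8119 tumour array and on 1 of 3 Py8119 culture arrays. It was at least 17.7-fold lower in Py8119 tumours (-4.68 ± 0.15, adjusted p = 2.08e-13) and was lower in culture as well (-5.09 ± 0.20, adjusted p = 5.78e-06). Dsg2 had log2 signals of 5.41, 6.34, 6.19, 6.17 and 6.17 in mixed tumours, 4.17, 4.61, 4.41, 4.44 and 4.60 in Py8119 tumours, and 9.09, 8.70, 8.39, 9.02 and 9.31 in Py117 tumours. Py8119 cultures gave 4.38, 4.61 and 4.50, against 9.27, 8.99 and 9.15 in Py117 cultures. Desmoglein 2, the desmoglein of simple epithelia, was under the background level on every Py8119 array. The bounds were 12.1-fold in tumours (-4.46 ± 0.18, adjusted p = 1.95e-12) and 14.2-fold in culture (-4.64 ± 0.11, adjusted p = 2.06e-06). A separate Dsg2 probe set was under the background level in all 5 group means and carries no information on this.

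Jup had log2 signals of 6.85, 7.60, 7.42, 7.56 and 7.55 in mixed tumours, 6.58, 6.56, 6.85, 6.65 and 6.50 in Py8119 tumours, and 9.56, 9.86, 9.62, 9.85 and 9.62 in Py117 tumours. Py8119 cultures gave 5.98, 6.30 and 6.26, against 9.64, 9.93 and 9.52 in Py117 cultures. Plakoglobin, shared by desmosomes and adherens junctions, was well above background in both lines and lower in Py8119, with log2 differences of -3.07 ± 0.13 in tumours (8.42-fold, adjusted p = 3.24e-12) and -3.52 ± 0.14 in culture (11.4-fold, adjusted p = 7.24e-06). Desmocollin 2 (Dsc2), the partner cadherin of desmoglein 2, was under the background level on every Py8119 array. It was at least 2.89-fold lower in tumours (adjusted p = 8.08e-07) and at least 4.94-fold lower in culture (adjusted p = 9.75e-06).

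Dsg3 and Pkp1, which stratified epithelia use, were called between the lines in culture and not in tumours. Dsg3 had log2 signals of 4.45, 4.50, 4.67, 4.79 and 4.46 in mixed tumours, 4.56, 4.23, 4.70, 4.63 and 4.39 in Py8119 tumours, and 4.38, 4.66, 4.75, 4.56 and 4.54 in Py117 tumours. Py8119 cultures gave 4.79, 4.07 and 4.52, against 7.09, 7.86 and 7.72 in Py117 cultures. Desmoglein 3 was on in Py117 culture and under the background level on every other array. Py8119 culture was at least 4.75-fold lower (-3.09 ± 0.25, adjusted p = 0.00015), and the tumours differed by -0.08 ± 0.11 (adjusted p = 0.648), both under background. Pkp1 had log2 signals of 6.56, 7.38, 7.00, 7.33 and 7.04 in mixed tumours, 7.00, 6.88, 7.01, 7.36 and 7.01 in Py8119 tumours, and 6.70, 8.48, 8.45, 7.30 and 7.03 in Py117 tumours. Py8119 cultures gave 7.45, 7.78 and 8.08, against 10.52, 10.55 and 10.67 in Py117 cultures. Plakophilin 1 was lower in Py8119 culture (-2.81 ± 0.16, adjusted p = 3.27e-05), while in tumours the lines overlapped and 2 of the 5 Py117 tumours stood above the rest (-0.54 ± 0.28, adjusted p = 0.159).

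Pkp2 had log2 signals of 7.77, 7.91, 7.61, 7.96 and 8.12 in mixed tumours, 8.01, 7.96, 7.89, 8.32 and 7.91 in Py8119 tumours, and 7.00, 6.56, 6.19, 6.96 and 7.21 in Py117 tumours. Py8119 cultures gave 8.65, 8.57 and 8.68, against 8.30, 8.31 and 8.19 in Py117 cultures. Plakophilin 2, the most widely used plakophilin, was higher in Py8119 tumours (1.23 ± 0.16, adjusted p = 5.93e-06). Its smaller difference in culture (0.37 ± 0.09, adjusted p = 0.0214) was lost without Py117 culture 1 (0.0572) or 3 (0.0809) or Py8119 culture 1 (0.0632) or 3 (0.066). Pkp3 had log2 signals of 6.41, 6.27, 6.18, 6.21 and 6.29 in mixed tumours, 6.36, 6.37, 6.24, 6.26 and 6.20 in Py8119 tumours, and 7.50, 7.29, 7.19, 7.30 and 7.17 in Py117 tumours. Py8119 cultures gave 6.23, 5.83 and 6.28, against 7.97, 7.77 and 7.87 in Py117 cultures. Plakophilin 3 was lower in Py8119, with log2 differences of -1.002 ± 0.082 in tumours (adjusted p = 2e-08) and -1.76 ± 0.14 in culture (adjusted p = 0.000143).

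Ppl had log2 signals of 5.69, 6.14, 6.14, 5.82 and 5.86 in mixed tumours, 6.22, 5.93, 6.01, 5.85 and 5.75 in Py8119 tumours, and 6.84, 7.08, 7.16, 7.30 and 7.10 in Py117 tumours. Py8119 cultures gave 6.20, 5.72 and 6.19, against 9.14, 9.15 and 9.29 in Py117 cultures. Periplakin, a plakin of desmosomes and the cornified envelope, was lower on every Py8119 array than on any Py117 array (-1.14 ± 0.11 in tumours, adjusted p = 2.79e-07, and -3.15 ± 0.15 in culture, adjusted p = 1.35e-05). Evpl had log2 signals of 5.49, 5.90, 5.75, 5.44 and 5.66 in mixed tumours, 5.62, 5.86, 5.66, 5.79 and 5.43 in Py8119 tumours, and 6.11, 6.11, 6.13, 5.99 and 6.22 in Py117 tumours. Py8119 cultures gave 5.74, 5.87 and 5.90, against 6.83, 6.96 and 6.89 in Py117 cultures. Envoplakin, its partner, differed by -0.44 ± 0.10 in tumours (adjusted p = 0.00181) and -1.06 ± 0.09 in culture (adjusted p = 0.000239). Skin keratinocyte markers (9 genes) averaged 5.30 to 5.87 in mixed, 5.35 to 5.49 in Py8119 and 5.42 to 5.79 in Py117 tumours, near the background level, against 5.41 to 5.63 in Py8119 and 6.04 to 6.11 in Py117 culture.

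The connexins differed little. Gja1, the most widespread connexin, averaged 9.38 ± 0.11 in mixed, 9.20 ± 0.15 in Py8119 and 9.81 ± 0.12 in Py117 tumours (SD, n = 5 each). The log2 difference Py8119 minus Py117 was -0.60 ± 0.09 in tumours (adjusted p = 3.12e-05) and -0.36 ± 0.08 in culture (adjusted p = 0.0177). The culture call of Gja1 did not hold with median centring (adjusted p = 0.202) or without Py117 culture 1 (0.0618) or 3 (0.0621) or Py8119 culture 1 (0.0525) or 3 (0.0516). Gjb2, a connexin of the mammary gland and the inner ear, was under the background level on every Py8119 array and near it in Py117 (-0.53 ± 0.11 in tumours, adjusted p = 0.000804, and -0.65 ± 0.10 in culture, adjusted p = 0.00335).

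**Figure D3:**
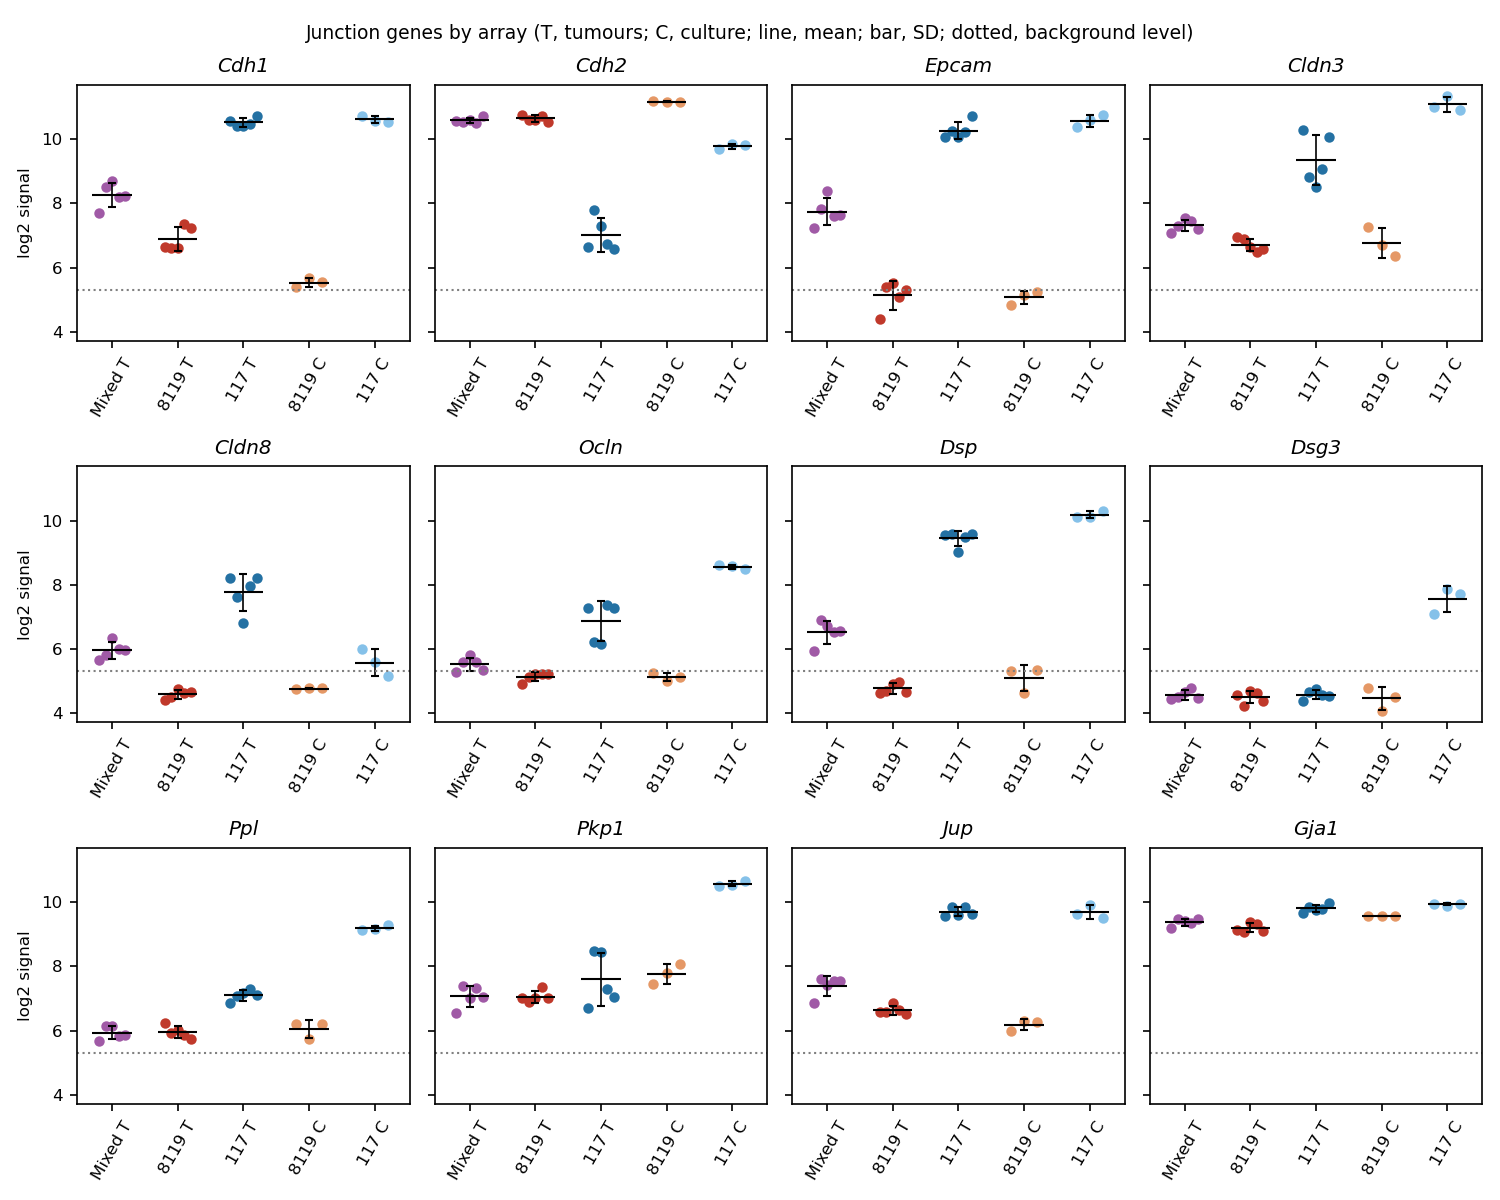
Log2 signal of 12 junction genes on each array (points) with group mean (line) and SD (bar), for mixed, Py8119 and Py117 tumours and for Py8119 and Py117 culture. The dotted line is the background level of 5.31. Dsg3 is above it only in Py117 culture, Cldn8 is highest in Py117 tumours, and Cdh2 is lowest in Py117 tumours.

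The tumour and culture comparison asked how junction genes of each line differed once the cells had grown in the fat pad. Sample type and a possible batch of tumours against cultures cannot be told apart. In Py8119, 7 genes were higher and 9 lower in tumours than in culture, where 16.3% of all genes were called higher and 20.9% lower. With each array centred on its median, which differed by 0.21 between tumours and culture, 5 were higher and 16 lower, where 10.6% of all genes were called higher and 40.8% lower. In Py117, 4 genes were higher and 20 lower, where 12.4% of all genes were called higher and 18.3% lower. There the medians differed by 0.16, and after centring 3 were higher and 25 lower, where 9.93% of all genes were called higher and 33.9% lower. The median difference of the junction genes was -0.06 in Py8119 (-0.05 over all genes) and -0.34 in Py117 (-0.09 over all genes).

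In Py8119 tumours the largest rises were those of Cdh11 (1.77 ± 0.49, adjusted p = 0.0168), Cldn1 (1.73 ± 0.13, adjusted p = 5.47e-06), Cdh1 (1.36 ± 0.20, adjusted p = 0.000358) and Lsr (0.91 ± 0.14, adjusted p = 0.00066). Every Py8119 tumour was above every Py8119 culture for each of these 4 genes, as for 16.7% of all genes, and 2 of the 3 Py8119 cultures were under the background level for Lsr and 1 for Cdh11. The Cdh11 call was lost without Py8119 culture 2 (adjusted p = 0.0596), the lowest of the 3. Pard6b fell most (-1.42 ± 0.19, adjusted p = 0.0002), followed by Pkp1 (-0.72 ± 0.15, adjusted p = 0.00401). Pkp2 (-0.62 ± 0.11), Tjp1 (-0.54 ± 0.09), Cdh2 (-0.53 ± 0.09) and Ctnna1 (-0.46 ± 0.09) were lower by less. The 10 junction genes under the background level on every Py8119 array in both settings could not show a fall.

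In Py117 tumours Cdh11 (3.32 ± 0.32, adjusted p = 2.58e-05), Cldn8 (2.19 ± 0.31, adjusted p = 0.000349) and Nectin4 (1.61 ± 0.12, adjusted p = 3.13e-06) were at least 2-fold higher than in culture, and F11r was higher by 0.36 ± 0.10 (adjusted p = 0.0156). The F11r call was lost without Py117 culture 1 (0.0607) or 3 (0.0658) and with median centring (0.132). The most negative differences were those of Pkp1 (-2.99 ± 0.38, adjusted p = 0.000176), Dsg3 (-2.97 ± 0.17, adjusted p = 6.28e-07, at least 4.75-fold), Cdh2 (-2.78 ± 0.26, adjusted p = 1.82e-05) and Ppl (-2.10 ± 0.12, adjusted p = 6.2e-07). Pard6b (-1.76), Cldn3 (-1.74), Ocln (-1.70), Pkp2 (-1.48) and Cldn7 (-1.06) also fell by at least 2-fold, with adjusted p of at most 0.00748. Cdh1 (-0.10 ± 0.11, adjusted p = 0.582), Epcam (-0.30 ± 0.17, adjusted p = 0.2) and Jup (0.00 ± 0.13, adjusted p = 0.981) were not called in Py117. Tumours include host cells and cultures do not, and the part of host RNA in these differences was not tested.

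Whether the line difference itself differed between tumours and culture was tested as an interaction. It was called for 15 of the 41 genes, against 13.5% of all genes, 12 with a higher and 3 with a lower value in tumours, where 7.50% of all genes were called higher and 5.99% lower. A positive value means that Py8119 minus Py117 was more positive in tumours. The largest were Dsg3 (3.02 ± 0.25, adjusted p = 4.51e-07), Pkp1 (2.27 ± 0.45, adjusted p = 0.00223), Cdh2 (2.26 ± 0.29, adjusted p = 4.15e-05) and Ppl (2.01 ± 0.19, adjusted p = 1.61e-06). For these 4 genes the difference between tumours and culture was more negative in Py117 than in Py8119. Lsr (1.73 ± 0.19, adjusted p = 6.98e-06) was higher in tumours in Py8119 and lower in Py117, where the call was lost with the mean of its probe sets (adjusted p = 0.0679). Cdh1 (1.46 ± 0.23, adjusted p = 0.000384) was higher in tumours in Py8119 and not called in Py117. Among the called genes, Cldn8 (-2.37 ± 0.35, adjusted p = 0.000195) and Nectin4 (-0.96 ± 0.17, adjusted p = 0.00079) had the most negative values. For Dsg3, Ocln and Cldn8 every Py8119 array was under the background level in both settings, so their interaction rests on the Py117 arrays.

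**Figure D4:**
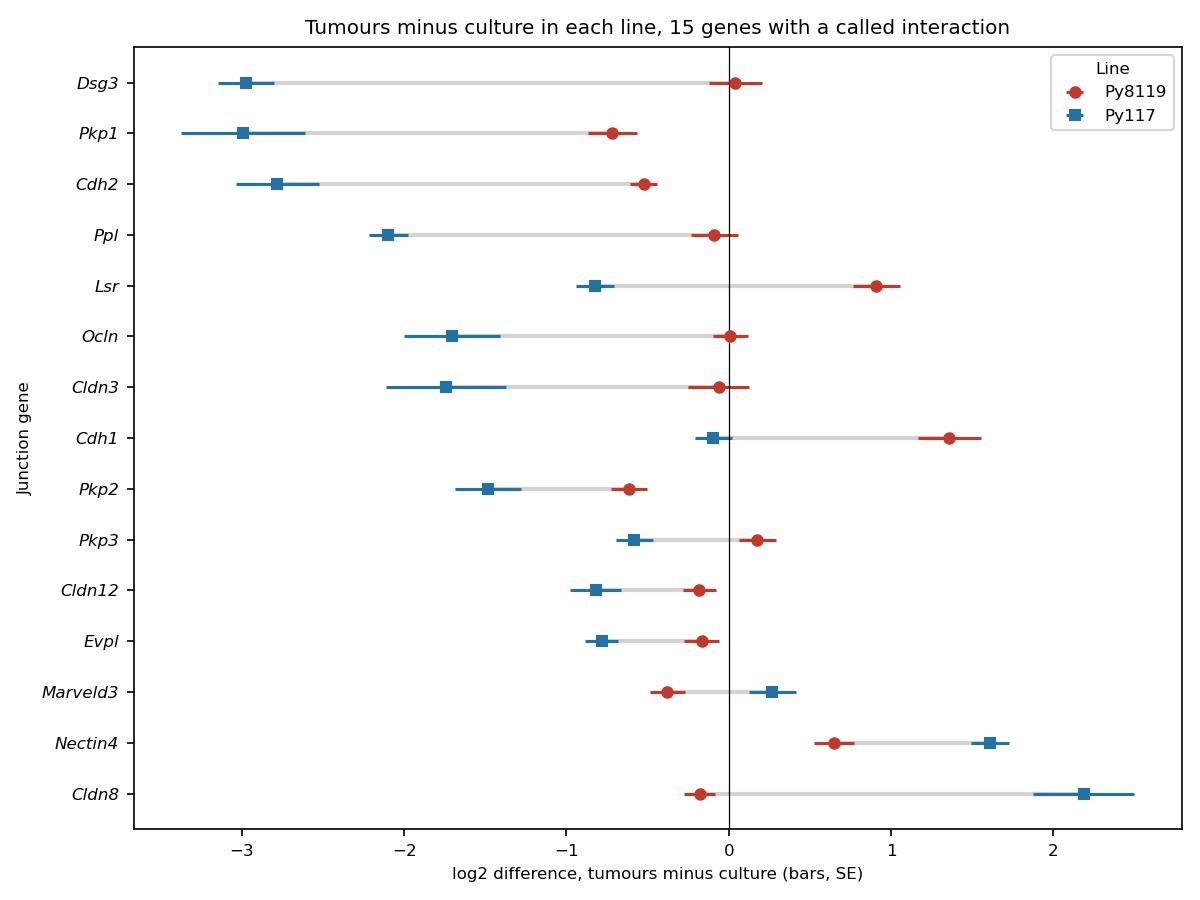
Log2 difference of tumours minus culture (x axis, bars for the standard error) in Py8119 (circles) and Py117 (squares) for the 15 junction genes with a called interaction. Dsg3, Pkp1 and Cdh2 lie between -2.99 and -2.78 in Py117 and between -0.72 and 0.04 in Py8119, and Cldn8 lies at 2.19 in Py117 and -0.18 in Py8119.

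The remaining interactions were those of Ocln (1.72), Cldn3 (1.68), Pkp2 (0.87), Pkp3 (0.76), Cldn12 (0.64), Evpl (0.62) and Marveld3 (-0.65). Calls among all 15 that rested on a single array were those of Cldn3, lost without Py117 culture 2 (adjusted p = 0.0598) or Py8119 culture 3 (0.0648), and Pkp2, lost without Py117 culture 1 (0.0582) or 2 (0.0624) or Py8119 culture 2 (0.057). Marveld3 was lost without Py117 culture 3 (0.0754) or Py8119 culture 1 (0.0724) or 3 (0.0652). Cldn12 was lost without Py117 culture 2 (0.112), Py8119 culture 1 (0.0545) or 3 (0.0989), Py117 tumour 2 (0.0571) or 5 (0.0572), or Py8119 tumour 1 (0.0545) or 4 (0.0555). The Cdh1 interaction was lost when the mean of its probe sets was taken (adjusted p = 0.0528).

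The mixed tumours asked where junction genes stood when both lines had been implanted together. Against Py117 tumours, 31 genes were lower and 3 higher in mixed tumours, where 16.9% of all genes were called lower and 19.2% higher, and the median difference was -0.79 (-0.03 over all genes). Against Py8119 tumours, 10 genes were higher and none lower by limma, also none at an unadjusted p under 0.05, where 1.61% of all genes were called higher and 0.162% lower, and the median difference was 0.15 (-0.03 over all genes). Both comparisons share the mixed arrays, and they share the parental arrays with the comparison of the parental tumours.

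The 10 genes higher in mixed than in Py8119 tumours were Epcam (2.61 ± 0.21, adjusted p = 7.25e-07), Dsp (1.76 ± 0.15, adjusted p = 1.57e-06), Dsg2 (1.61 ± 0.18, adjusted p = 2.77e-05), Cdh1 (1.38 ± 0.18, adjusted p = 0.000193), Cldn8 (1.37 ± 0.21, adjusted p = 0.000942), Lsr (0.96 ± 0.11, adjusted p = 5.6e-05), Jup (0.77 ± 0.13, adjusted p = 0.00214), Marveld3 (0.70 ± 0.12, adjusted p = 0.00374), Marveld2 (0.66 ± 0.15, adjusted p = 0.0249) and F11r (0.65 ± 0.09, adjusted p = 0.000315). For each of them every mixed tumour was above every Py8119 tumour, as for 3.85% of all genes. Every mixed tumour was also below every Py117 tumour, as for 2401 of 22180 genes. The share of all genes meeting both was not counted. The Marveld2 call was lost without any 1 of mixed tumours 2 to 5 or Py8119 tumours 2 to 4 (adjusted p = 0.0531 to 0.0864). Since Py8119 tumours were under the background level on every array for Dsp, Dsg2 and Cldn8, mixed tumours were at least 2.34-fold, 1.68-fold and 1.57-fold higher for these 3 genes.

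Against Py117 tumours the most negative differences of the mixed tumours were those of Dsp (-2.92 ± 0.15, adjusted p = 2.12e-10), Dsg2 (-2.85 ± 0.18, adjusted p = 1.44e-09), Epcam (-2.53 ± 0.21, adjusted p = 5.59e-08), Jup (-2.31 ± 0.13, adjusted p = 3.95e-10) and Cdh1 (-2.26 ± 0.18, adjusted p = 2.54e-08). Cdh2 (3.59 ± 0.18, adjusted p = 9.36e-11), Pkp2 (1.09 ± 0.16, adjusted p = 3.07e-05) and Cldn12 (1.06 ± 0.10, adjusted p = 2.42e-07) were higher. Between mixed and Py8119 tumours these last 3 genes were not called (Cdh2 -0.06 ± 0.18, Pkp2 -0.14 ± 0.16 and Cldn12 0.11 ± 0.10). Calls against Py117 tumours that rested on single arrays were those of Pard6b (-0.43 ± 0.15, adjusted p = 0.0332) and Cldn4 (-0.48 ± 0.16, adjusted p = 0.0268). Pard6b was lost without Py117 tumour 3, 4 or 5 or mixed tumour 2, 3 or 4 (0.0536 to 0.0926), and Cldn4 without Py117 tumour 1, 4 or 5 or mixed tumour 2 or 4 (0.0504 to 0.0829). With the adipocyte mean as a covariate, Ctnnd1 (adjusted p = 0.0748), Tjp3 (0.122), Cgn (0.326), Pard6b (0.321) and Cldn4 (0.934) were not called. That mean did not overlap here either, at 5.69 to 6.16 in mixed and 6.31 to 8.58 in Py117 tumours. The fit therefore cannot tell fat content and tumour group apart.

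The position of a mixed tumour was set on the linear scale as 0% at the Py117 mean and 100% at the Py8119 mean, over the 21 junction genes that were called and at least 2-fold different between the parental tumours. Their positions ran from 81.2% for Cldn8 to 101% for Ppl, with a median of 89.8%, against a median of 86.4% over 1953 genes chosen by the same rule. The 5 mixed tumours had medians of 95.01%, 86.1%, 83.4%, 88.9% and 91.0% over the junction genes, beside 92.0%, 83.0%, 80.1%, 87.9% and 88.1% over all such genes. On the log2 scale they ran from 49.3% for Epcam to 102% for Ppl, with a median of 76.8%, against 81.0% over all 1953 genes. On the linear scale mixed tumour 1 was nearest to Py8119 and mixed tumour 3 farthest, over the junction genes and over all 1953 genes, which include them. Cldn7 and Dsc2 were under the background level on every mixed and Py8119 tumour array, so their positions compare values under that level. For Cldn8, Ocln, Dsg2 and Dsp every Py8119 tumour array was under it, so the 100% end is itself under background. Fibroblast markers were lowest in mixed tumour 1, at a mean log2 signal of 7.48 against 7.61 to 8.06 in the other 4, and adipocyte markers were highest there, at 6.16 against 5.69 to 5.92, and whether tissue content moves the position was not tested.

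**Figure D5:**
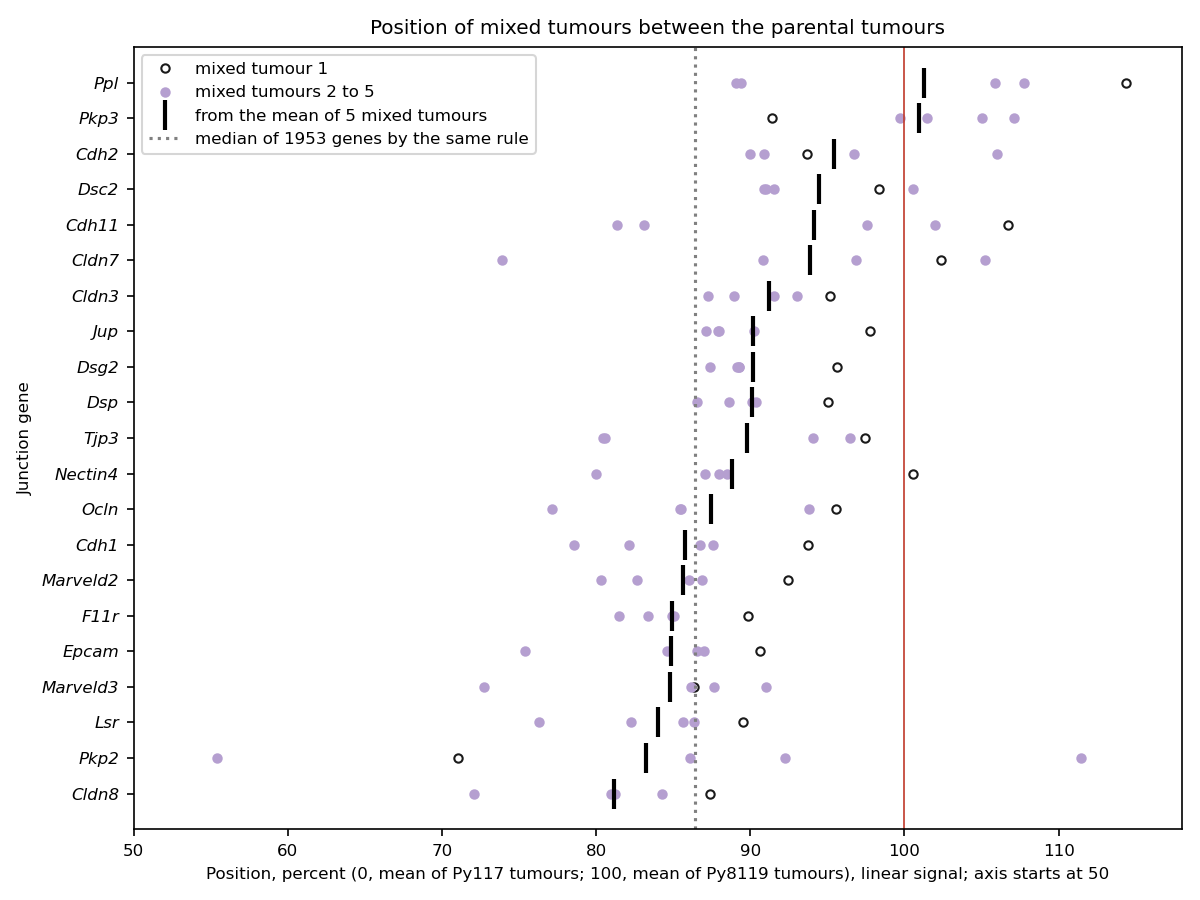
Position of the mixed tumours between the Py117 tumour mean (0%) and the Py8119 tumour mean (100%) on the linear scale for 21 junction genes, with the axis starting at 50%. Points are single mixed tumours (open, mixed tumour 1), black bars are from the mean of the 5, and the dotted line is the median of 1953 genes, 86.4%. The bars run from 81.2% for Cldn8 to 101% for Ppl.

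Among the Py117 tumours, replicates 2 and 3 stood apart from replicates 1, 4 and 5 in several junction genes. They were highest in Pkp1, Cdh2 and Cdh11 and lowest in Ocln, Cldn1, Cldn3 and Cldn4, as the values above show. In the same 2 tumours the mean of the adipocyte markers was 6.31 and 6.39, against 8.54, 7.63 and 8.58 in the other 3, and that of the fibroblast markers was 9.87 and 9.48, against 8.66, 8.97 and 8.94. Among the Py8119 tumours, replicates 4 and 5, highest in Cdh1 and Cdh11, had fibroblast means of 8.08 and 7.64, against 7.30 to 7.55 in the other 3. The part of tissue content in these differences was not tested.

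Other junction genes, which are not in the list of 41, are set here against the shares of all genes given above, 16.5% lower and 4648 of 22180 higher in Py8119 tumours and 12.3% lower and 14.5% higher in Py8119 culture. Of 39 further tight junction genes, 13 were lower and 9 higher in Py8119 tumours, and 11 were lower and 6 higher in Py8119 culture. Ildr1, the angulin related to Lsr, was lower, with a log2 difference of -3.88 ± 0.14 in tumours (adjusted p = 5.66e-13), where 4 of the 5 Py8119 arrays were under the background level, and at least 11.6-fold lower in culture (adjusted p = 2.9e-06). Patj, a scaffold of the Crumbs complex, was lower, with log2 differences of -2.99 ± 0.13 in tumours and -3.31 ± 0.09 in culture. Jam2, an adhesion molecule related to F11r, was lower, with log2 differences of -2.58 ± 0.18 in tumours and -2.38 ± 0.27 in culture. Cldn2, a pore-forming claudin, averaged 5.51 in mixed, 4.51 in Py8119 and 7.57 in Py117 tumours, and 4.53 in Py8119 and 5.20 in Py117 culture. Py8119 tumours and both cultures were under the background level on every array, so it was at least 4.79-fold lower in Py8119 than in Py117 tumours (adjusted p = 1.45e-10) and by the same bound higher in Py117 tumours than in Py117 culture (adjusted p = 7.99e-06).

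Of 18 further adherens genes, 6 were lower and 6 higher in Py8119 tumours, and 6 were lower and 3 higher in culture. Nectin3 was higher in Py8119 (1.57 ± 0.09 in tumours and 1.47 ± 0.11 in culture), and Cdh13, a cadherin without a transmembrane part, was lower in culture (-3.38 ± 0.14). Of 7 further desmosome genes 1 was lower in Py8119 tumours, Perp (-3.74 ± 0.15, adjusted p = 2.14e-12), a membrane protein needed for desmosomes in skin. In culture Perp was lower (-3.57 ± 0.09) while Dsg1c (at least 2.07-fold) and Cdsn, the corneodesmosin gene (1.96 ± 0.21), were higher. Of 17 further connexin and pannexin genes, Gjc1 was higher in Py8119 in both settings (1.04 ± 0.12 in tumours and 0.79 ± 0.15 in culture). Of the 17, 3 were lower in tumours and none in culture. In culture 1 was lower at an unadjusted p under 0.05, for which the share over all genes was not counted.

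Regulators of junction genes were counted in the same way. Of 11 epithelial regulators, 9 were lower and 1 higher in Py8119 tumours and 11 were lower in Py8119 culture, and the 1 that was higher in tumours was Klf4, named here after its values were seen. The epithelial splicing factor Esrp1 was under the background level on every Py8119 array, at least 40.2-fold lower in tumours and at least 52.5-fold lower in culture. Its relative Esrp2 was lower, with log2 differences of -2.55 ± 0.11 in tumours and -2.77 ± 0.15 in culture, and the transcription factor Ehf was at least 25.4-fold lower in tumours and differed by -3.66 ± 0.20 in culture, where 2 of the 3 Py8119 arrays were under the background level. Of 9 E-cadherin repressors, 8 were higher in Py8119 tumours and 6 in culture, where 2 were lower. Snai2, of the Snail family, was higher by 1.73 ± 0.15 in tumours (adjusted p = 3.55e-08) and 3.58 ± 0.17 in culture (adjusted p = 1.24e-05). Zeb1 was higher by 1.36 ± 0.08 in tumours (adjusted p = 3.23e-10) and 2.40 ± 0.20 in culture (adjusted p = 0.000157), where 2 of the 3 Py117 arrays were under the background level. Binding of these repressors was not measured, and their part in the junction gene differences was not tested. Between mixed and Py8119 tumours, 5 of the 11 epithelial regulators were higher in mixed tumours, among them Esrp1 (at least 5.9-fold, adjusted p = 1.3e-10). None of the 9 repressors was called by limma. At an unadjusted p under 0.05 were 3 (Snai1, Snai2 and Zeb1, each lower in mixed tumours), named after their values were seen. The share of all genes at that unadjusted p was not counted.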

How the data were processed

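Signals of 21 whole-transcript arrays were used. The deposited values are log2 signals made by the authors with RMA, per the submitters' processing notes. These list limma as well, and versions and the build are not given in the sources used here. Of the probe sets, those with 1 gene symbol were kept, and the one with the highest mean stood for each of 22180 genes. Comparisons were fitted with limma 3.58.1 in R 4.3.3 (lmFit, eBayes), and p-values were adjusted by Benjamini-Hochberg and called at 0.05. The comparisons between tumour groups came from a single fit of all tumour arrays, so they share an estimate of the spread. The comparisons within culture and of tumours with culture were fitted on the arrays of their own groups. The interaction was fitted on the 16 arrays of the unmixed groups. The scripts were tested on simulated data. The members and lists were chosen with earlier results of these data known. All 41 members may be named. Values of every array are given for the 6 with the largest difference in each comparison and for those whose call changes between culture and tumours or that the interaction called, and up to 4 genes are named per other list and comparison. Sources used here give no batch or date, and call the samples biological replicates without saying whether each is a separate animal or culture, so p-values measure the spread between these samples. No per-sample column was left unused. Replicate numbers are not said to pair the samples, and the main fits held no pairing. Correlations of same-numbered deviations ran from -0.234 to 0.257. Mixed tumours 1 to 4 correlated best with the Py117 tumour of the same number (r = 0.156, 0.0947, 0.257 and 0.176), and mixed tumour 5 did not. Between mixed and Py8119 tumours the correlations ran from -0.234 to -0.0292. Whether any samples were paired cannot be told. Alternatives were the normalization, centring, dim-gene filter, probe-set mean, prior, array weights, joint fit, replicate block, adipocyte covariate, threshold and leaving out each array. Figures were drawn with matplotlib 3.10.9.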

Additional observations from a re-analysis of the deposited data

Results flagged for a closer look

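Of 123 groups of 5 arrays, 3 for each junction gene, 9 held an array that stood far from the other 4. Chance gives about 1 in 20, which is near this count, and the share over all genes was not counted. The 9 are therefore listed as a description only. Low values were those of Cldn23 in Py8119 tumour 5 (5.12), Tjp1 in Py117 tumour 3 (9.25), Dsc2 in Py117 tumour 3 (5.63), Dsp in Py117 tumour 3 (9.03), Dsg2 in mixed tumour 1 (5.41) and Jup in mixed tumour 1 (6.85). High values were those of Crb3 in Py8119 tumour 2 (6.03), Pkp1 in Py8119 tumour 4 (7.36) and Pkp2 in Py8119 tumour 4 (8.32).

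For 15 genes the line difference differed between tumours and culture by the interaction test. The values, tumours minus culture, were 1.46 for Cdh1, 2.26 for Cdh2, -0.96 for Nectin4, 1.68 for Cldn3, -2.37 for Cldn8, 0.64 for Cldn12, 1.72 for Ocln, -0.65 for Marveld3, 1.73 for Lsr, 3.02 for Dsg3, 2.27 for Pkp1, 0.87 for Pkp2, 0.76 for Pkp3, 2.01 for Ppl and 0.62 for Evpl.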

How the results depend on the processing

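Of 165 calls of junction genes over the 7 comparisons, 127 were kept under every alternative run. With 1 array left out, the counts of higher and lower genes ranged from 1 to 3 and 25 to 29 in culture, 3 to 4 and 30 to 31 between Py8119 and Py117 tumours, 3 and 29 to 31 between mixed and Py117 tumours, 9 to 10 and 0 between mixed and Py8119 tumours, 6 to 7 and 7 to 11 for Py8119 tumours against culture, 3 to 5 and 15 to 21 for Py117 tumours against culture, and 9 to 13 and 2 to 4 for the interaction. The count of higher genes in culture, 2, was 1 with a single fit of 21 arrays, with the replicate block and at a threshold of 0.01. For these runs and those with 1 array left out, the shares over all genes were not counted. Under median centring 16 genes were lower in Py8119 tumours than in culture, against 9, where 40.8% of all genes were lower, against 20.9%. The median position of the mixed tumours was 76.8% on the log2 scale. With the adipocyte mean as covariate Cldn4 changed sign between mixed and Py117 tumours (log2 difference 0.024, adjusted p = 0.934). The cause was not tested.

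The replicate block, a pairing that the sources used here do not state, gave 1 higher and 27 lower genes in culture, 3 and 30 between the parental tumours, 3 and 31 between mixed and Py117 tumours, 10 and 0 between mixed and Py8119 tumours, 5 and 6 for Py8119 tumours against culture, 4 and 16 for Py117 tumours against culture, and 14 and 3 for the interaction. The shares of all genes called with the block were not counted. A change in these counts therefore cannot be read as particular to junction genes. Members under the background level limit what can be seen: 30 of the 41 remained when dim genes were left out.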
